A study of Mus musculus with 2 samples.

Results

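The integrated stress response and the amino acid genes it controls were followed through 9 transcripts: Atf4, Atf5, Ddit3, Trib3, Chac1, Sesn2, Asns, Psat1 and Phgdh. They were chosen by gene symbol, and each matched 1 of the 28692 gene rows of the deposited count matrix. The study grew neural stem cells from the subventricular zone of postnatal C57/Bl6J mice, the germinal layer along the lateral ventricle, and profiled them by droplet single-cell RNA sequencing with the 10x Genomics 3′ v1 chemistry. The labels name 2 libraries: a control, given the vehicle DMSO according to the series' design text, and cells treated with 20HC at 1 µM, an oxysterol by the series' title. Both libraries are C57/Bl6J, carry no genetic change that the labels mention, and were taken 3 days after the growth factors EGF and FGF were withdrawn. The treatment label of the control library also names 20HC, so that label and the title do not say the same thing. The labels give neither the number of animals nor whether animals were pooled.

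The matrix pools both libraries, and its 14685 barcodes carry only the ending 1 or 2, which nothing ties to a label. All values are therefore given for cell classes, and for barcode set 1 (10787 barcodes, 30517055 UMIs) and barcode set 2 (3898 barcodes, 10945271 UMIs) side by side, with no condition attached to a set. A UMI is a molecular tag that marks 1 captured RNA molecule. After cells with under 500 genes, cells above 10% mitochondrial UMIs and called doublets were left out, 12975 cells remained, with a median of 2818 UMIs in set 1 and 2888 in set 2. With 1 pooled matrix there are no replicates and no p-values; all intervals are exact 95% intervals that cover counting error only.

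Cells were grouped into 12 clusters and named by marker genes. The classes used here were astrocyte-like (7002 cells), cycling-like (2023), neuroblast-like (1544), neural stem or progenitor-like (692), oligodendrocyte precursor-like (556) and fibroblast-like (216) cells. Beside them stood 344 cells led by Car9 and 489 shallow cells led by Lgals1, with a median of 1096 UMIs, which were left unnamed. The 73 ependymal-like and 36 microglia-like cells were too few to be compared. The fibroblast-like cells held 8 of 8 fibroblast markers at 2-fold or more, with a summed level of 9875 UMIs per 1000000 UMIs of the class (CPM) against 87.4 CPM in all other cells, and also pericyte or smooth muscle markers at 6700 CPM against 57.6 CPM. By these markers they are not neural cells, although the labels call the culture neural stem cells; the part of cell identity in their levels was not tested.

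The integrated stress response starts when a stress-sensing kinase phosphorylates the translation initiation factor eIF2alpha. General protein synthesis then falls, while mRNAs with regulatory upstream reading frames, among them Atf4, Atf5 and Ddit3, are translated more. ATF4 protein, paired with C/EBP proteins, activates genes of amino acid synthesis, uptake and tRNA charging, and in longer or harsher stress the transcription factor CHOP (Ddit3) and further effectors. Because much of the control of ATF4 lies in translation, the level of Atf4 mRNA is not a measure of its protein. In the brain, astrocytes are known as the main site of serine synthesis, which begins with PHGDH.

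The promoters of Chac1 and Asns are shown because both genes stood high beside Atf4 in the same cell class and both hold letters of the motif at which ATF4 and C/EBP proteins bind together. The windows are the 250 bases before the annotated start, 5′ to 3′ on the gene's own strand, from RefSeq on GRCm38.p6. Capitals mark matches to TGATGNAA or TGACGNAA, or to their reverse complements TTNCATCA and TTNCGTCA; the motifs do not overlap each other here.
Chac1, chr2:119350992-119351241, plus strand: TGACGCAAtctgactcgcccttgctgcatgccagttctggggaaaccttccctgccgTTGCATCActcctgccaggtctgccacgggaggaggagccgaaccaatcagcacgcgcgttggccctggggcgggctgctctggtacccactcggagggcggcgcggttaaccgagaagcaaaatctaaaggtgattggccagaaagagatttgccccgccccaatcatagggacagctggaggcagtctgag
Asns, chr6:7693210-7693459, minus strand: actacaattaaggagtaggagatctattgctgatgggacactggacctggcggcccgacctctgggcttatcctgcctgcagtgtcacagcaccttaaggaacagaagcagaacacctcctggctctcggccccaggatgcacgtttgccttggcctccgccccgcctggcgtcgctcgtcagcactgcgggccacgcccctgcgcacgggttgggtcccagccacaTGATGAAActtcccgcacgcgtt

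In Chac1 the first match begins 250 bases and the second 193 bases before the start, and in Asns the match begins 23 bases before it. Trib3 has 1 match, TTACATCA, beginning 14 bases after its start. All 9 genes have an entry in the promoter table, Atf5 and Psat1 2 each, and none of the other 6 genes holds either motif in windows that reach from 250 bases before to 50 bases after the start. Over the whole table, 6.26% of 27025 genes hold 1 of these motifs: 4.51% TGATGNAA and 1.83% TGACGNAA. A match is a description of letters; it does not show binding, and its absence from a window shows nothing about the factor.

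The 9 transcripts did not move as 1 group across cell classes. Fibroblast-like cells stood high in Atf4, Atf5, Ddit3, Trib3 and Asns, and held 51.2% of all Trib3 UMIs. The Car9-led cells, rich in hypoxia-induced genes, stood high in Ddit3, Trib3 and Sesn2 but not in Atf4 or Asns. Trib3 rested on 12 UMIs there and lost its call in 5 settings, some of which had too few Trib3 UMIs for any call. Cycling-like cells, in contrast, stood high in Atf4, Chac1 and Asns but not in Ddit3, Trib3 or Sesn2. In astrocyte-like cells Phgdh was high and Atf4, Trib3, Chac1 and Asns were low. High and low here are calls against all other kept cells: a CPM at least 1.5-fold apart, on the same side in set 1 and in set 2, the other cells' CPM outside the class's interval, and no fewer than 30 UMIs of the gene in all. Of the genes, 5 (Atf4, Ddit3, Trib3, Asns and Phgdh) were among the variable genes used for clustering, so the classes are not independent of them; leaving all members and pathway genes out of the clustering kept every call in fibroblast-like, cycling-like, neuroblast-like, astrocyte-like and Lgals1-led cells, and lost Atf4 and Psat1 in oligodendrocyte precursor-like, Trib3 in Car9-led and Chac1 in neural stem or progenitor-like cells.

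**Figure D1:**
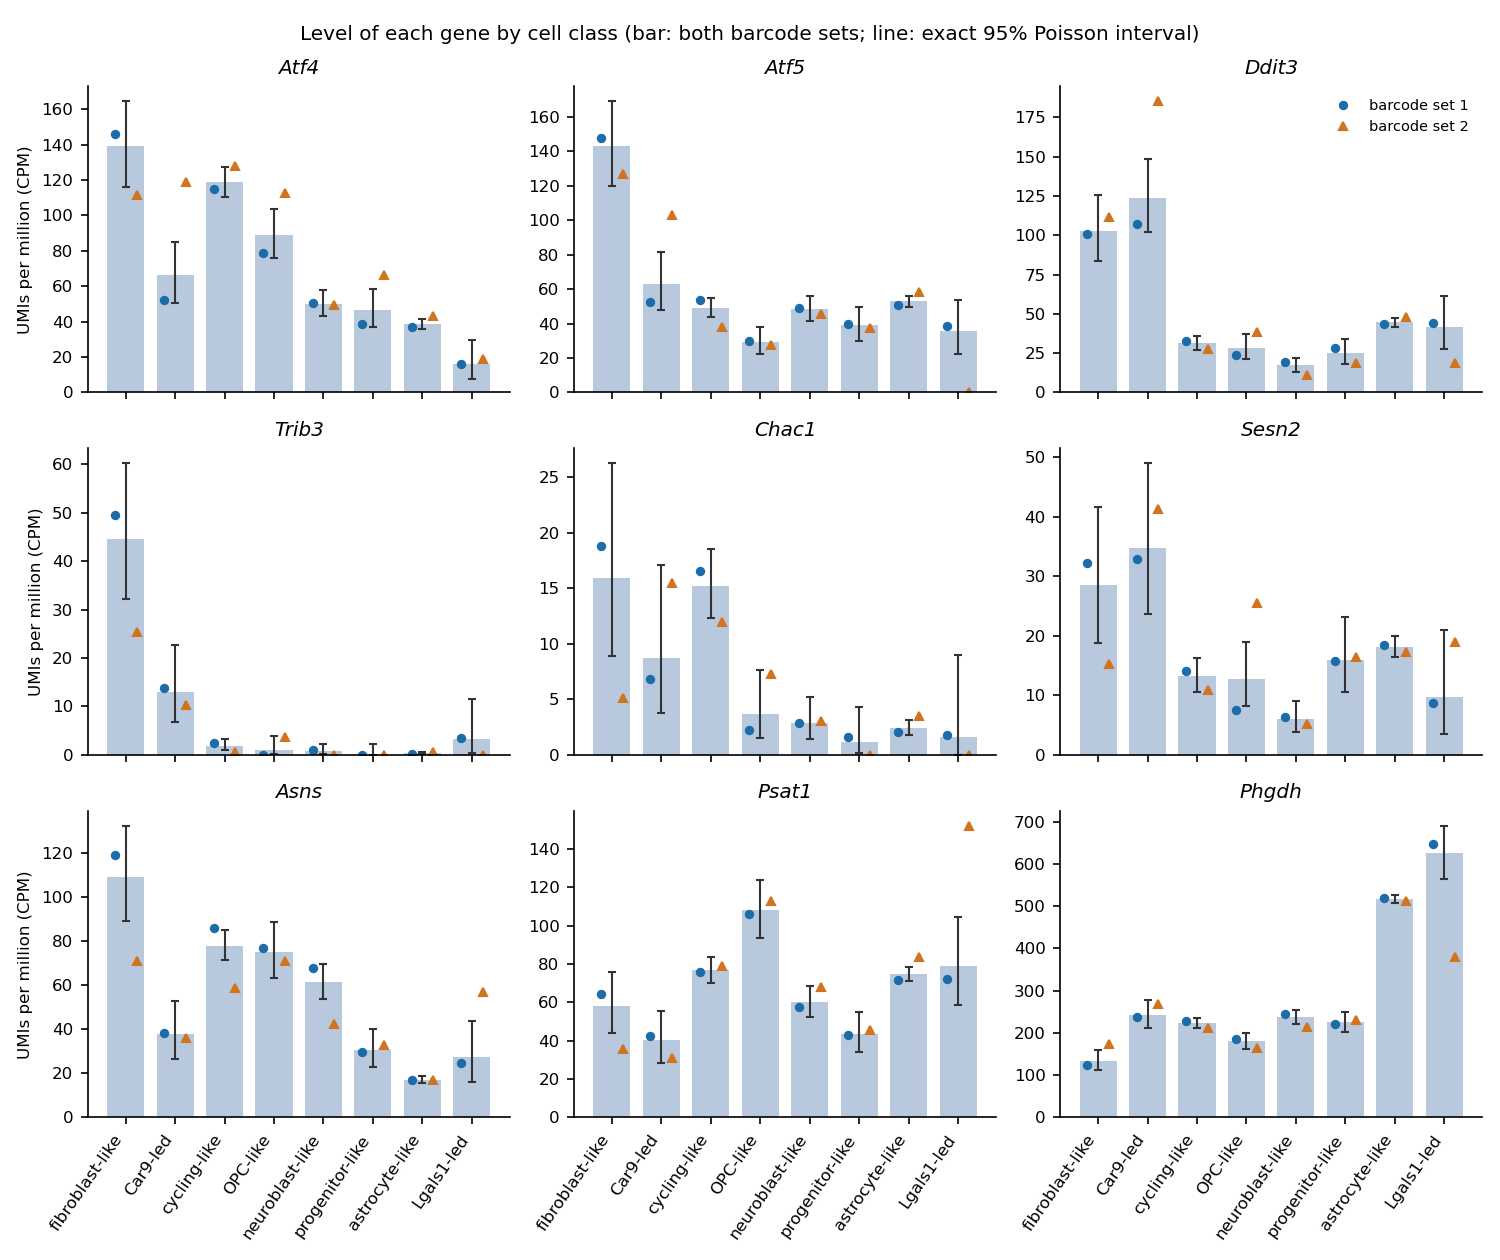
Level of each gene in 8 cell classes, in CPM on a linear axis from 0. Bars show both barcode sets together, lines the exact 95% Poisson interval, circles barcode set 1 and triangles barcode set 2. Trib3 stands at 44.6 CPM in fibroblast-like cells and Phgdh at 518 CPM in astrocyte-like cells; OPC means oligodendrocyte precursor.

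Atf4 (chr15:80255184-80257541, plus strand; GENCODE M21, GRCm38, as for all positions of genes), the transcription factor at the centre of the response, gave 2255 UMIs in the kept cells, or 59.2 CPM. It was highest in fibroblast-like cells at 139 CPM (interval 116 to 165; 146 in set 1 and 112 in set 2) and in cycling-like cells at 119 CPM (111 to 128; 115 and 128 by set), and these intervals overlap. Oligodendrocyte precursor-like cells followed at 88.9 CPM (79.0 and 113 by set), below the cycling-like interval. Car9-led cells were at 66.2 CPM, neuroblast-like cells at 50.1 CPM and neural stem or progenitor-like cells at 46.7 CPM, each overlapping its neighbour. Astrocyte-like cells had 38.7 CPM (37.0 and 43.4 by set) against 85.3 CPM in all other cells, and the Lgals1-led cells had 16.1 CPM from 10 UMIs. Compared only with cells that were not astrocyte-like, Atf4 was called lower in neuroblast-like (50.1 against 95.6 CPM) and neural stem or progenitor-like cells (46.7 against 89.7 CPM). In oligodendrocyte precursor-like cells it lost its call there (88.9 against 84.9 CPM). In Car9-led cells the sets were apart, with 52.3 CPM (37.0 to 71.7) in set 1 and 119 CPM (75.2 to 178) in set 2. The share of these cells with an Atf4 UMI was 12.12% in set 1 and 12.5% in set 2. Up to 7 UMIs came from 1 cell and 31.15% of them from 5 cells, a spread that the intervals do not cover.

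Atf5 (chr7:44812256-44816658, minus strand), a related factor that also supports the mitochondrial stress response, gave 1985 UMIs, or 52.1 CPM. Fibroblast-like cells had 143 CPM (120 to 170; 148 and 127 by set), 2.88-fold the level of all other cells, and no other class's interval reached theirs. The next 6 classes lay between 63.0 CPM in Car9-led and 39.0 CPM in neural stem or progenitor-like cells, with overlapping neighbours, including the ependymal-like cells at 54.6 CPM. Oligodendrocyte precursor-like cells had 29.3 CPM (30.1 and 27.3 by set) against 53.3 CPM elsewhere and were called lower. Atf5 lies over Nup62 and Il4i1 on the other strand, and whether the counting used strand is not stated in the sources used here, so reads of these genes may not be told apart from those of Atf5.

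Ddit3 (chr10:127290774-127296288, plus strand) encodes CHOP, a factor tied to prolonged stress and cell death. Its 1576 UMIs came to 41.4 CPM. Car9-led cells had 124 CPM (102 to 149; 107 and 186 by set) and fibroblast-like cells 103 CPM (83.5 to 126; 101 and 112 by set), so both classes stood above all other large classes and overlapped each other. Astrocyte-like cells had 44.7 CPM, Lgals1-led cells 41.9 CPM, cycling-like cells 31.3 CPM and oligodendrocyte precursor-like cells 28.2 CPM. The lowest levels were 25.4 CPM in neural stem or progenitor-like cells (28.2 and 18.6 by set) and 17.2 CPM in neuroblast-like cells (19.3 and 11.4 by set), both called lower. In the neural stem or progenitor-like cells the log2 ratio of Ddit3 turned to 0.23 without a cell filter and 0.08 at clustering resolution 1.0, and the class was not found with doublets kept or at resolution 0.3. The annotation holds another gene entry, also named Ddit3, that overlaps it on the same strand, so reads of the overlap may not be told apart. Ddit3 also overlaps Mars and Gm4189 on the other strand, so the limit given for Atf5 holds here too.

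Trib3 (chr2:152337422-152344032, minus strand), a pseudokinase that restrains AKT and feeds back on ATF4, was the scarcest of the 9, with 82 UMIs in all kept cells. Of these, 42 lay in fibroblast-like cells, at 44.6 CPM (32.1 to 60.2; 49.6 in set 1 and 25.4 in set 2, the latter from 5 UMIs) against 1.08 CPM in all other cells. The 42 UMIs came from 31 of the 216 cells, at most 3 from 1 cell, so no single cell carried the level. A Trib3 UMI was found in 14.4% of fibroblast-like cells (median 4190.5 UMIs) and in 0.0857% of astrocyte-like cells (median 2984 UMIs). With each cell thinned to 1000 UMIs the shares were 4.22% of 213 cells and 0 of 6849 cells, which at the interval's upper end allows 0.0539%. Car9-led cells had 13.0 CPM from 12 UMIs, of which 75% lay in 5 cells. The Car9-led call was lost without a cell filter, at a limit of 5% mitochondrial UMIs, with these genes left out of the clustering, after thinning and in set 2 alone, where it had 2 UMIs. It held with the 5 cells richest in effector UMIs left out of each class, where the fibroblast-like cells had Chac1 and Sesn2 called higher beside their other 5 genes. The fibroblast-like call was lost after thinning, with 17 Trib3 UMIs in all cells, and in set 2 alone. Neural stem or progenitor-like cells had 0 UMIs of Trib3, where 3 UMIs would have been 1.77 CPM.

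Chac1 (chr2:119351229-119354381, plus strand) encodes an enzyme that breaks down glutathione and is induced through ATF4 and CHOP. Of its 196 UMIs, 50.5% lay in cycling-like cells, at 15.2 CPM (12.4 to 18.5; 16.5 in set 1 and 12 in set 2) against 3.07 CPM in all other cells. Fibroblast-like cells had 15.9 CPM (8.91 to 26.3) but were not called higher, since set 1 gave 18.8 CPM and set 2 gave 5.08 CPM from 1 UMI. Every other large class lay between 8.69 CPM in Car9-led and 1.18 CPM in neural stem or progenitor-like cells, with overlapping neighbours. Neuroblast-like (2.92 CPM), neural stem or progenitor-like (2 UMIs) and astrocyte-like cells (2.43 CPM) were called lower. In neuroblast-like cells the log2 ratio of Chac1 turned to 0.47 with doublets kept, and the call was lost in each barcode set alone and under median-of-ratios scaling.

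Sesn2 (chr4:132492032-132510501, minus strand) encodes Sestrin 2, a leucine sensor that holds back mTORC1. It overlaps Gm12981 on the same strand, so reads of the overlap cannot be told apart. Its 617 UMIs gave 16.2 CPM. Car9-led cells had 34.8 CPM (23.8 to 49.1; 33.0 and 41.3 by set) and were called higher; fibroblast-like cells had 28.6 CPM (18.9 to 41.7; 32.2 in set 1 and 15.2 in set 2) and were not. Astrocyte-like cells followed at 18.1 CPM. The lowest large class was neuroblast-like at 6.10 CPM (6.42 and 5.16 by set), called lower against 17.3 CPM elsewhere.

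Asns (chr6:7675169-7693254, minus strand) makes asparagine from aspartate and glutamine. Its 1464 UMIs gave 38.4 CPM. Fibroblast-like cells had 109 CPM (89.2 to 133; 119 and 71.1 by set), above the cycling-like interval of 71.4 to 85.1 around 78.0 CPM. Oligodendrocyte precursor-like cells had 75.1 CPM and neuroblast-like cells 61.3 CPM, each overlapping the class above. All of these were called higher, and astrocyte-like cells were called lower at 17.1 CPM (17.2 and 16.9 by set) against 65.7 CPM elsewhere. Compared only with cells that were not astrocyte-like, Asns kept its call in fibroblast-like cells (109 against 63.0 CPM) and lost it in cycling-like (78.0 against 57.8 CPM), oligodendrocyte precursor-like (75.1 against 64.5 CPM) and neuroblast-like cells (61.3 against 66.9 CPM).

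Phgdh (chr3:98313170-98339990, minus strand) and Psat1 (chr19:15904678-15947337, minus strand) catalyse the first and the second step of serine synthesis. Phgdh gave 14927 UMIs in the kept cells, 74.2% of them in astrocyte-like cells, where it was found in 70.1% of cells. Astrocyte-like cells had 518 CPM (508 to 527; 520 and 511 by set) against 231 CPM elsewhere, and the shallow Lgals1-led cells had 625 CPM (648 in set 1, 381 in set 2). In set 2 the Lgals1-led level came from 20 UMIs, and all kept cells of set 2 had 379 CPM. Car9-led, neuroblast-like, neural stem or progenitor-like and cycling-like cells lay between 243 and 224 CPM and overlapped their neighbours. Oligodendrocyte precursor-like cells had 180 CPM and fibroblast-like cells 135 CPM (125 and 173 by set), the lowest of the large classes. Without astrocyte-like cells in the comparison, Phgdh stayed lower only in fibroblast-like cells (135 against 236 CPM) among the classes where it had been called lower.

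Psat1 did not follow Phgdh. Its 2776 UMIs gave 72.8 CPM, and it was highest in oligodendrocyte precursor-like cells at 108 CPM (93.7 to 124; 106 and 113 by set). Astrocyte-like cells had 74.7 CPM, the cycling-like cells 76.8 CPM and the Lgals1-led cells 78.9 CPM, with overlapping intervals. Car9-led cells at 40.2 CPM and neural stem or progenitor-like cells at 43.8 CPM were called lower. The annotation lists 1 pseudogene named after Phgdh, and reads shared with it cannot be told apart here. Psat1 overlaps Gm3329 on the other strand, so the limit given for Atf5 holds for it too.

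**Figure D2:**
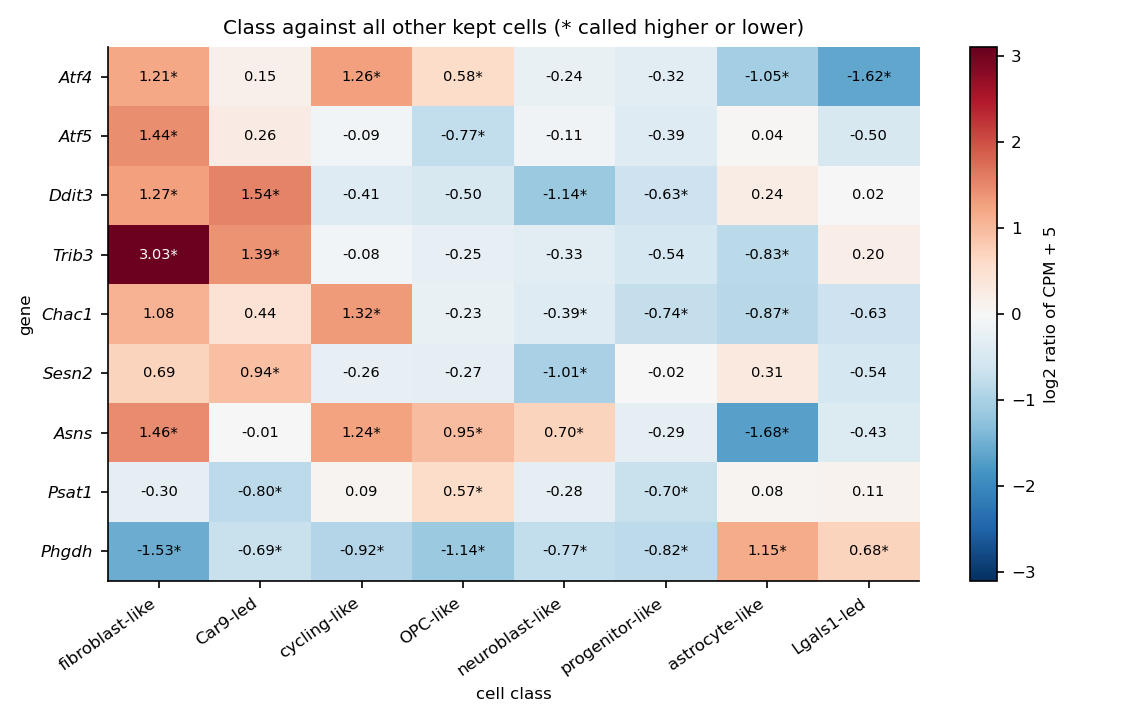
Log2 ratio of CPM + 5 between each class (columns) and all other kept cells, for the 9 genes (rows); red is higher in the class, blue lower, and an asterisk marks a call. The ratio is 3.03 for Trib3 in fibroblast-like cells and -1.68 for Asns in astrocyte-like cells.

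By class, fibroblast-like cells had 5 of the 9 genes higher and 1 lower, where 11.8% of the 13025 genes measured were higher and 19% were lower. The median log2 ratio of CPM + 5 was 1.21 over the 9 genes and -0.19 over all genes. Car9-led cells had 3 genes higher and 2 lower (Psat1 and Phgdh), against 5.72% and 7.36% of all genes. Cycling-like cells had 3 higher and 1 lower (Phgdh), against 14.5% and 43.4%, and oligodendrocyte precursor-like cells had 3 higher (Atf4, Asns, Psat1) and 2 lower (Atf5, Phgdh), against 8.41% and 18.5%. In the cycling-like cells a share of 1 in 9 genes lower thus lay under the background share.

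Neuroblast-like cells had 1 gene higher (Asns) and 4 lower (Ddit3, Chac1, Sesn2, Phgdh), where 12.5% and 33.9% of all genes were called. Neural stem or progenitor-like cells had none higher and 4 lower (Ddit3, Chac1, Psat1, Phgdh), against 3.83% and 17.1%. Astrocyte-like cells had 1 higher (Phgdh) and 4 lower, against 36.5% and 19.2%, and Lgals1-led cells 1 higher (Phgdh) and 1 lower (Atf4), against 2.53% and 29.6%. The Phgdh call in Lgals1-led cells rests on set 1, since in set 2 they had 380.5 CPM and all kept cells 378.6 CPM. For the neuroblast-like, oligodendrocyte precursor-like and Lgals1-led cells the member counts are small and several lie close to the background. On the log2 scale the median of well-measured genes sat at -0.27 in cycling-like, -0.15 in neuroblast-like, 0.27 in astrocyte-like and -0.24 in Lgals1-led cells, and scaling by the median of ratios instead of total UMIs left every call in these classes except Chac1 in neuroblast-like cells.

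The pathway list counts leave out 5 genes that reached 30 UMIs only through 1 class (Fgf21, Cebpb, Cth, Slc1a5 and Fosb), and are read beside the share of all genes called in the class. In fibroblast-like cells, where 11.8% of all genes were higher and 19% lower, 8 of 14 endoplasmic reticulum chaperones were called higher and 1 lower, among them Hspa5, the master chaperone BiP, at 711 against 261 CPM, and Calr, the calcium-binding chaperone calreticulin, at 1034 against 411 CPM. Of 14 further stress targets of ATF4 and CHOP, 5 were higher and 2 lower, the latter share under the background; Eif4ebp1, which restrains cap-dependent translation, had 383 against 80.7 CPM. Nupr1, a small stress-induced chromatin protein named after its values were seen, had 1321 against 28.1 CPM. Fgf21, a hormone named likewise and not counted, had 91 of its 92 UMIs in 33 fibroblast-like cells. Of 20 cytosolic aminoacyl-tRNA synthetases, which load amino acids onto tRNA, 6 were higher and 1 lower, with Eprs at 336 against 218 CPM and Dars at 56.2 against 105 CPM. Of 12 serine, glycine and one-carbon enzymes 2 were higher and 7 lower: Psph, the last enzyme of serine synthesis, had 152 against 290 CPM.

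Car9-led cells had 10 of 10 hypoxia-induced genes higher, such as Bnip3, a mitophagy receptor, at 341 against 50.9 CPM and Egln3, an oxygen-sensing hydroxylase, at 283 against 29.9 CPM; Car9 and other genes of that list lead the cluster, so this describes how the cluster was formed. Of the further stress targets 7 of 14 were higher and none lower, beside 5.72% and 7.36% of all genes. They included Sqstm1, the autophagy receptor p62, at 150 against 94.3 CPM and Eif4ebp1 at 195 against 85.5 CPM. The others, named after their values were seen, were Ddit4, Stc2, Vldlr, Ero1l and Nupr1. Nupr1 had 219 against 56.1 CPM, with 62.9% of its 202 UMIs in 5 cells and 71 in 1 cell. How far these targets follow the hypoxia-induced genes that lead the cluster was not tested. Of the chaperones 4 of 14 were higher and none lower, with Hspa5 at 414 against 269 CPM. None of the 20 tRNA synthetases was higher and 1 was lower, and Eprs had 260 against 220 CPM. Summed astrocyte markers stood at 4525 against 6398 CPM in these cells, cycling markers at 215 against 2514 CPM and fibroblast markers at 546 against 324 CPM; their part in the results was not tested.

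In cycling-like cells 12 of 20 tRNA synthetases were higher and 1 lower, while 11 of 14 further stress targets were lower and 1 higher, and 8 of 14 chaperones were lower and none higher. Sqstm1 had 31.6 against 109 CPM and Calr 210 against 471 CPM. Of the one-carbon enzymes 5 of 12 were higher and 4 lower; thymidylate synthase Tyms, itself an S-phase marker used to name the class, had 399 against 42.6 CPM, and Psph 152 against 315 CPM. Mthfd2, the mitochondrial folate enzyme, named after its values were seen, had 84.5 against 11.3 CPM. Over all genes of this class 14.5% were higher and 43.4% lower, so a share of 4 in 12 lower is under the background.

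Astrocyte-like cells, where 36.5% of all genes were higher and 19.2% lower, had 7 of 10 measured amino acid transporters higher and 2 lower, led by the glutamate transporters Slc1a3 (546 against 174 CPM) and Slc1a2 (422 against 99.6 CPM), both also markers used to name the class. Psph was higher at 369 against 181 CPM, as was Aldh1l1, a folate enzyme and astrocyte marker, while Mthfd2 had 3.32 against 49.98 CPM. Of the 20 tRNA synthetases 1 was higher and 8 were lower. Of the 4 eIF2alpha kinases, Eif2ak2 (PKR) was higher at 57.2 against 30.3 CPM; no kinase was called in fibroblast-like cells, Eif2ak2 was lower in cycling-like cells at 24.0 against 49.8 CPM, and Eif2ak1 (HRI) was lower in Car9-led cells at 8.69 against 18.2 CPM. Of the 10 subunits and regulators of eIF2, 3 were higher and 4 lower in astrocyte-like, 3 and 3 in cycling-like, 2 and 2 in fibroblast-like and 0 and 1 in Car9-led cells. In astrocyte-like cells the higher share of this list is under the background. Of 12 other amino acid enzymes, 5 were higher and 4 lower in astrocyte-like, 4 and 6 in cycling-like, 4 and 4 in fibroblast-like and 6 and 1 in Car9-led cells; the first of these, 5 of 12 higher, is near the background. Of 9 immediate early genes, whose levels respond to handling, 5 were higher and 1 lower in astrocyte-like, 0 and 7 in cycling-like, 3 and 1 in fibroblast-like and 2 and 0 in Car9-led cells; their part in the results was not tested.

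**Figure D3:**
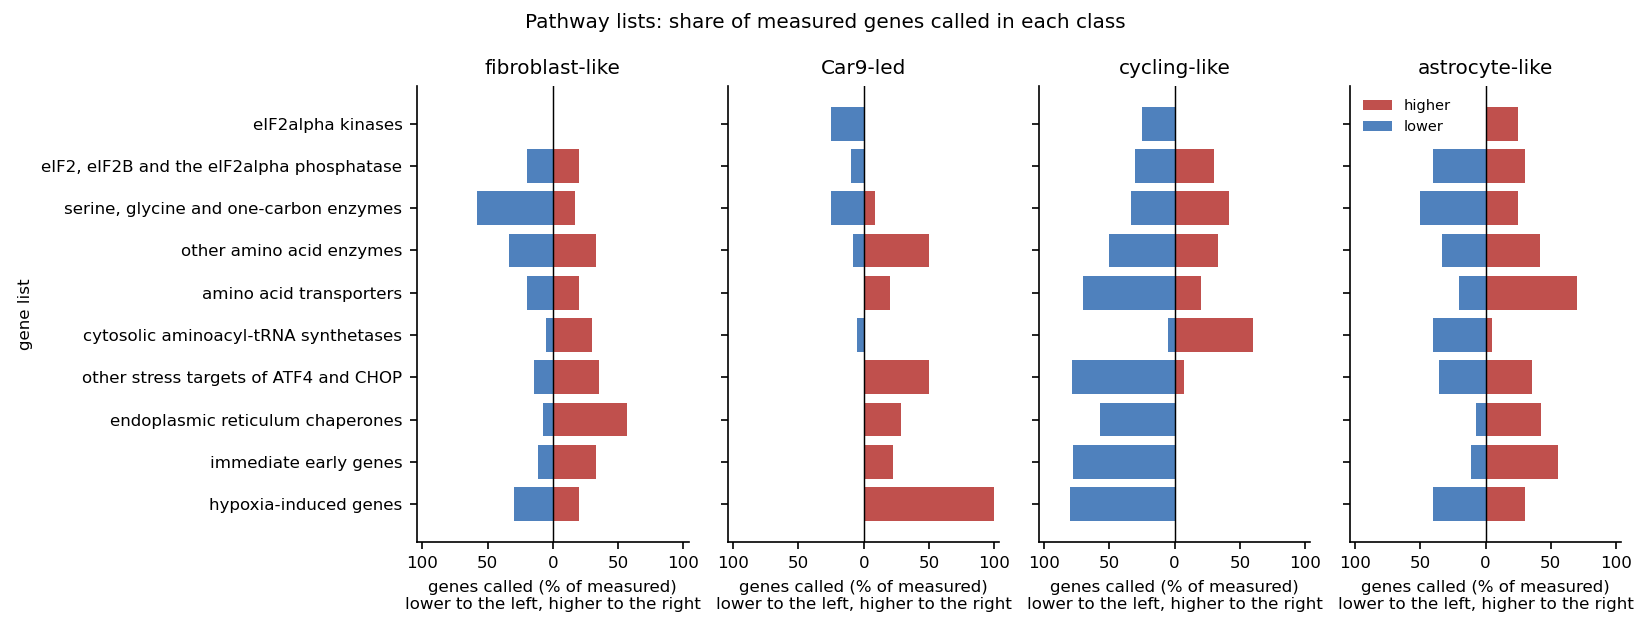
Share of the measured genes of 10 pathway lists, without the 5 genes measured through 1 class only, called higher (red, to the right) or lower (blue, to the left) in 4 cell classes, in percent. Of the tRNA synthetases, 12 of 20 are higher in cycling-like cells and none in Car9-led cells, where 10 of 10 hypoxia-induced genes are higher.

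Within the cycling-like class, 5 of the 9 genes had intervals apart between its 2 clusters, as had 11.8% of the 13025 genes measured; genes with more UMIs have narrower intervals. Cluster 3 (1061 cells), led by the mitotic genes Cdc20, Ube2c and Ccnb1, had Atf4 at 145 CPM (133 to 159), and cluster 4 (962 cells), led by histone and other S-phase genes, had 92.2 CPM (82.0 to 103). Psat1 was at 99.5 CPM (89.0 to 111) in cluster 3 and 53.8 CPM (46.1 to 62.4) in cluster 4, Asns at 97.6 CPM and 58.2 CPM, and Atf5 at 59.8 CPM and 38.4 CPM, each with intervals apart. Phgdh was at 240.5 CPM (224 to 258) and 206 CPM (191 to 223), only just apart. Both sets showed the order for all 5 genes: Psat1 had 97.1 and 105 CPM in cluster 3 against 55.2 and 50.2 CPM in cluster 4. Chac1 (17.7 and 12.7 CPM), Ddit3 (32.4 and 30.3 CPM) and Sesn2 (14.04 and 12.4 CPM) had overlapping intervals.

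In 6 other classes, cells were divided by whether they held any mitotic UMI, and 1 value had intervals apart. The share of all genes apart was not computed for this split, so this count is a description only. Among oligodendrocyte precursor-like cells, the 359 with a mitotic UMI had Psat1 at 124 CPM (106 to 145), and the 197 without had 70.2 CPM (49.9 to 95.9). Their median depths were 3452 and 2789 UMIs, so the split also divides cells by depth. Atf4 had 99.1 and 64.8 CPM there, with overlapping intervals. In astrocyte-like cells Psat1 had 75.7 and 74.5 CPM and Phgdh 518 CPM in both, and in neuroblast-like cells Psat1 had 62.1 and 56.3 CPM, with overlapping intervals. In fibroblast-like cells Trib3 had 63.5 CPM (42.5 to 91.2) with and 26.8 CPM (14.3 to 45.8) without a mitotic UMI, and these intervals overlap.

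The astrocyte-like class also held 2 clusters, between which 2 of the 9 genes and 20.1% of all genes measured had intervals apart. The count of members thus lies near the background. Cluster 1 (2598 cells), led by Cldn10, Gfap and Aldoc, had Phgdh at 604 CPM (587 to 621; 612 and 582 by set), and cluster 0 (4404 cells), led by Pcp4, Agt and Gria1, had 466 CPM (454 to 477; 464 and 470 by set). Atf5 was at 58.9 and 49.2 CPM in the same order. Asns (15.5 and 18.1 CPM), Sesn2 (16.5 and 19.1 CPM) and Psat1 (79.3 and 71.9 CPM) had overlapping intervals. Mitochondrial share moved with some of the genes: from astrocyte-like cells with at most 2% mitochondrial UMIs (428 cells) to those with 6 to 10% (1284 cells), Phgdh went from 683 to 462 CPM and Asns from 32.9 to 11.2 CPM, while Sesn2 had 18.7 and 18.5 CPM. The part of RNA quality in these values was not tested.

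Genes of the response were read together in single cells, after thinning to 1000 UMIs. Among cycling-like cells, Chac1 was found in 4.27% of the 211 cells with an Atf4 UMI (1.97 to 7.94) and in 1.06% of the 1795 without (0.639 to 1.65). The difference was 3.21 percentage points, 2.94 without set 2 and 3.92 without set 1. Chac1 was also found in 8.51% of cells with a Ddit3 UMI and 1.23% of those without, but this rests on 4 cells and was -0.69 percentage points in set 2 alone. Of the 36 pairs, these and Phgdh with Asns (31.3% against 19.3%) and with Psat1 (33.8% against 19.1%) had intervals apart. No share over other gene pairs was computed, so the counts of pairs apart, here and in the other classes, are a description only. The class also joins a mitotic and an S-phase cluster with different levels of Atf4, Asns, Psat1 and Phgdh, and its part in these pairs was not tested.

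The pair Atf4 and Chac1 held within both cycling clusters at 2000 UMIs: 7.77% against 2.05% in cluster 3 and 6.94% against 1.43% in cluster 4. At 1000 UMIs cluster 4 gave 10% against 0.910%, and cluster 3, with 1 cell holding both, 0.763% against 1.20%, with overlapping intervals. Atf4 and Asns were apart in cluster 4 (20.1% against 7.39% at 2000 UMIs) and overlapped in cluster 3 (19.2% against 13.3%). At 2000 UMIs Chac1 was found in 12.9% of cycling-like cells with a Ddit3 UMI and 2.09% of those without, with intervals apart. This pair was also apart in cluster 4 (16.4% against 1.395%) and overlapped in cluster 3 (9.84% against 2.83%). Astrocyte-like cells gave no pair with intervals apart at either depth. Car9-led cells gave 1 of 36 at 1000 UMIs: Trib3 was found in 10.7% of 28 cells with a Ddit3 UMI and 0.333% of 300 without, from 3 cells holding both. In fibroblast-like cells Trib3 was found in 31.6% of cells with an Atf4 UMI and 4.38% of those without before thinning, a contrast in which deeper cells hold more of both; at 1000 UMIs none of the 36 pairs was apart.

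**Figure D4:**
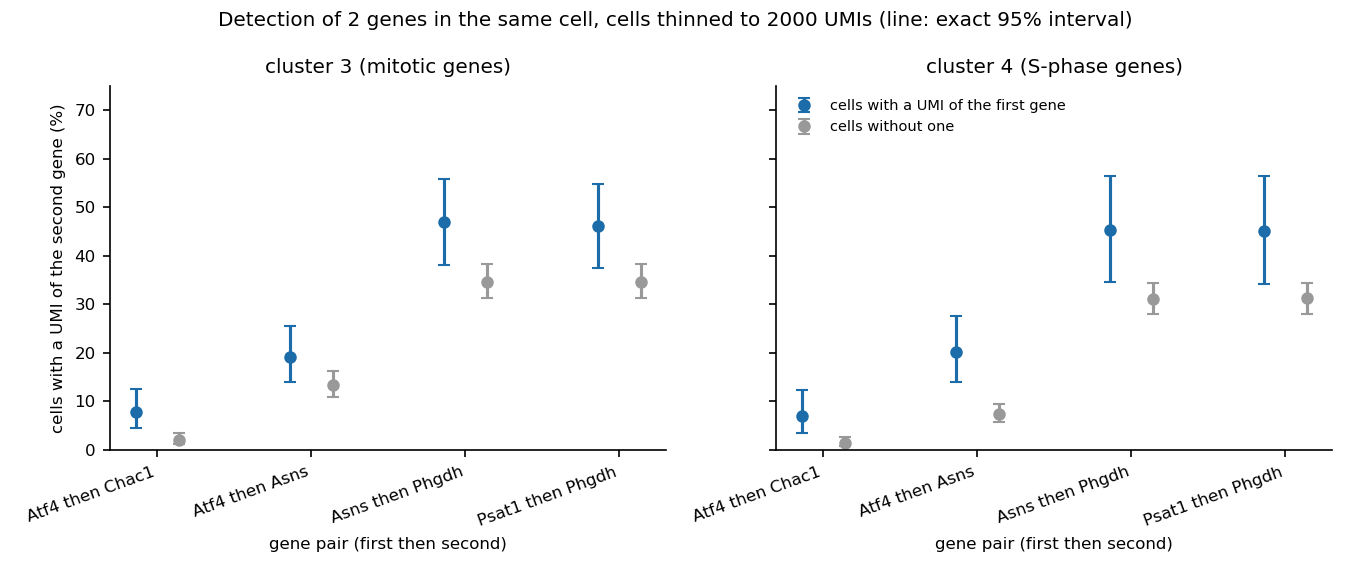
Share of cells with a UMI of the second gene of a pair, among cells with (blue) and without (grey) a UMI of the first, in the mitotic cluster 3 and the S-phase cluster 4, each cell thinned to 2000 UMIs. Lines are exact 95% binomial intervals; Chac1 stands at 7.77% against 2.05% in cluster 3 and 6.94% against 1.43% in cluster 4.

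Cells with at least 2 of the 4 effectors Ddit3, Trib3, Chac1 and Sesn2 were rare. At 1000 UMIs they were 1.52% of Car9-led cells (5 of 328; 0.497 to 3.52), 0.469% of fibroblast-like (1 of 213), 0.249% of cycling-like (5 of 2006) and 0.161% of astrocyte-like cells (11 of 6849). Among these 4 classes, only the Car9-led and astrocyte-like intervals lay apart. Before thinning the shares were 4.65%, 14.4%, 2.22% and 0.871%, and at 2000 UMIs fibroblast-like cells had 5.94% (3.11 to 10.2) and Car9-led cells 2.33% (0.858 to 4.99), so their place in the order changes with depth. The median depth was 4190.5 UMIs in fibroblast-like and 2628.5 UMIs in Car9-led cells.

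Across 20 profiles, each a cluster in 1 barcode set with at least 50 cells, the 9 genes fell into loose groups by Pearson's r of log2(CPM + 5). Atf4 went with Asns (0.74) and Chac1 (0.65), and Chac1 with Asns (0.61). Ddit3 went with Sesn2 (0.78), Trib3 (0.76) and Atf5 (0.70), and Atf5 with Trib3 (0.77), while Atf4 and Ddit3 had 0.15. Asns and Phgdh ran opposite (-0.81), and Psat1 had 0.17 with Phgdh. The profiles share library, depth and clusters in pairs, so these values are a description. Among 9850 genes with at least 200 UMIs, those most alike Atf4 were Zc3h7a (0.923), Mrpl54 (0.884) and Dync1li1 (0.867), and those most alike Asns were 4921524J17Rik (0.904), Ngfrap1 (0.900) and Tmem97 (0.899). Prrc1 (0.868), Rhoj (0.862) and Islr (0.862) came closest to Atf5, Bsg (0.874), P4ha1 (0.869) and Ifi30 (0.853) to Ddit3, and Ccdc107 (0.832), Lonp1 (0.804) and Mov10 (0.790) to Sesn2. For Psat1 they were Plpp7 (0.830), Tmem18 (0.757) and Chkb (0.728), and for Phgdh Pdzph1 (0.929), Tagln3 (0.901) and Alas1 (0.894). Trib3 and Chac1 had too few UMIs to be searched.

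Between the barcode sets, 3 of the 9 genes had intervals apart over all kept cells, where 13.3% of the 13025 genes measured did. Atf4 had 56.2 CPM in set 1 and 67.4 CPM in set 2, Psat1 70.3 and 79.9 CPM, and Asns 40.6 and 32.5 CPM. Trib3 had 2.47 CPM from 69 UMIs and 1.28 CPM from 13 UMIs, with overlapping intervals. Within classes, 5 of 72 values were apart, against 3.2% over all genes measured in the same 8 classes; both counts are small. They included Atf4 in Car9-led cells, where 31.15% of its UMIs lay in 5 cells. The others were Sesn2 in oligodendrocyte precursor-like cells (7.52 and 25.5 CPM), Psat1 in astrocyte-like cells (71.4 and 83.6 CPM) and Asns in cycling-like (86.0 and 59.0 CPM) and neuroblast-like cells (67.8 and 42.3 CPM). Asns was lower in set 2 in both of these, while astrocyte-like cells had 17.2 and 16.9 CPM. No set is tied to a library, and with 1 library each, treatment and library could not be told apart even if it were.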

How the data were processed

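Single-cell RNA was measured in 2 libraries deposited as 1 matrix of UMI counts, per the file headers 14685 barcodes by 28692 genes. The submitters' processing notes name Cell Ranger 2.1.1 and the build mm10; filters applied before deposit are not stated there. The deposited counts were summed per class and scaled to CPM here. Cells with under 500 genes or above 10% mitochondrial UMIs (1407 barcodes) were left out, as were 303 doublets called by Scrublet in scanpy 1.11.5 (291 in set 1, 12 in set 2); the 0.352% called in set 2 is low. The sets share 48 barcode sequences. Clusters came from 2000 variable genes, 30 components, 15 neighbours and Leiden at resolution 0.5 (leidenalg 0.10.2), named from fixed markers. Ratios used CPM + 5. Thinning drew 1000 or 2000 UMIs per cell. Poisson and Clopper-Pearson intervals are at 95%. The call rule was run on simulated Poisson totals, with folds set only in genes of at least 2000 UMIs and no spread between cells. Atf5, Ddit3, Trib3, Chac1, Sesn2 and Asns have fewer UMIs, so that run does not cover their calls.

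The text names all 9 genes, the 3 genes with most UMIs of each of 10 pathway lists (where they describe a class), and the 3 genes most alike each member in profile; others are said to be named after their values were seen. The members and lists were chosen with earlier results of these data known. Positions come from GENCODE M21 (98.8% of gene IDs matched), promoters from RefSeq.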

Additional observations from a re-analysis of the deposited data

Results flagged for a closer look

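The barcodes left out by the cell filter (1407, median 1084 UMIs) enter no comparison, yet hold UMIs of the genes above the limit that a count of 0 allows. Phgdh had 505 CPM there against 392 CPM in kept cells, Psat1 61.4 against 72.8, Atf5 39.0 against 52.1, Atf4 28.3 against 59.2, Ddit3 22.4 against 41.4, Asns 20.0 against 38.4, Sesn2 14.1 against 16.2 and Chac1 1.95 against 5.14. In the 912 barcodes above 10% mitochondrial UMIs alone, Phgdh had 544 CPM (508 to 582) and Atf4 33.8 CPM (25.3 to 44.2). The levels of Phgdh, Atf4 and Asns in the left-out barcodes were nearer to those of astrocyte-like cells (518, 38.7 and 17.1 CPM) than to those of cycling-like cells (224, 119 and 78.0 CPM).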

How the results depend on the processing

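The settings tried were the cell filter, doublets, resolution, clustering without these genes, scaling, thinning, each barcode set, the comparison cells, the fold and the UMI minimum; leaving out the 5 cells richest in effector UMIs was added after seeing the data. No call in fibroblast-like cells was lost except Trib3, thinned to 1000 UMIs, where it had 17 UMIs in all, and in set 2 alone. Trib3 in Car9-led cells lost its call in 5 settings. Counts of genes higher and lower are given in that order. Leaving out each barcode set gave 4 to 7 and 1 to 2 genes in fibroblast-like, 3 to 4 and 1 to 2 in Car9-led, 3 to 3 and 1 to 3 in cycling-like, 2 to 2 and 2 to 4 in oligodendrocyte precursor-like, 0 to 1 and 3 to 3 in neuroblast-like, 0 and 2 to 3 in neural stem or progenitor-like, 1 to 1 and 3 to 4 in astrocyte-like, and 0 to 1 and 0 to 1 in Lgals1-led cells. A fold of 2 left 0 lower in Car9-led and 0 lower in cycling-like, 1 higher and 1 lower in oligodendrocyte precursor-like, 0 higher and 2 lower in neuroblast-like, 1 lower in neural stem or progenitor-like and 0 higher in Lgals1-led cells. Thinning to 1000 UMIs gave 2 lower in cycling-like, 1 higher in oligodendrocyte precursor-like, 2 higher and 2 lower in astrocyte-like and 0 higher in Lgals1-led cells. Oligodendrocyte precursor-like cells had 1 gene higher with doublets kept, 0 higher and 4 lower at resolution 0.3, 1 higher and 4 lower at resolution 1.0, 1 higher with members and lists left out of the clustering, and 1 higher against cells that were not astrocyte-like. Neuroblast-like cells had 2 higher with doublets kept and 0 higher against cells that were not astrocyte-like. The latter comparison also gave new calls. Atf4 and Trib3 became lower in neuroblast-like cells, and Atf4, Trib3 and Asns in neural stem or progenitor-like cells. Asns became lower in Car9-led, Trib3 in cycling-like and Chac1 in oligodendrocyte precursor-like cells, and Sesn2 became higher in fibroblast-like cells. Without a cell filter, neural stem or progenitor-like cells had 1 lower and Lgals1-led cells 0 higher and 4 lower; at resolution 1.0 these had 1 lower and 0 higher. The neural stem or progenitor-like class was not found with doublets kept or at resolution 0.3.

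Log2 ratios changed sign for Phgdh in Car9-led (0.08) and neuroblast-like cells (0.05) and Asns in neuroblast-like cells (-0.12) against cells that were not astrocyte-like, for Chac1 in neuroblast-like cells with doublets kept (0.47), and for Ddit3 in neural stem or progenitor-like cells without a cell filter (0.23) and at resolution 1.0 (0.08); the cause was not tested. Cells with 2 of the 4 effectors made up 14.4% of fibroblast-like, 4.65% of Car9-led, 2.22% of cycling-like and 0.871% of astrocyte-like cells with no thinning, and 5.94%, 2.33%, 1.29% and 0.4% of the same classes at 2000 UMIs; with at least 3 of the 4 genes the share was 0 in all of these classes at 1000 UMIs. No paired analysis was possible because each group has 1 library and its barcodes cannot be picked out. Depth limits Trib3 and Chac1 most, and no interval covers differences between cultures.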
